A study of Mus musculus with 6 samples.

Results

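The genes described here are the pleckstrins and the actin regulators known for a part in erythroblast enucleation. They were chosen by name, with earlier results of these data known, as Plek2, Plek, Cfl1, Cfl2, Dstn, Limk1, Limk2, Diaph3 and Rac2, together with the symbol Diap3. The tables listed 9 of these 10 symbols in all 6 cultures, out of 17060 genes listed in any culture. Diap3 had no entry of its own and is an older synonym of Diaph3 in RefSeq, so it was counted as 0 and is not a separate gene. All 9 listed genes passed the filter on low counts and were tested. Lineage-negative bone marrow cells of wild-type mice were grown in an erythropoietin (EPO) induction culture for 48 hours with the vehicle DMSO (3 cultures) or with NUP-17d (3 cultures), an analog of a compound found by virtual screening against the DEP domain of Plek2. The concentration was 10 μM according to the published description, whereas the sample labels give the compound and the time only. The labels give no genetic change in any of the 6 cultures. Total RNA enriched for mRNA with oligo(dT) was sequenced in each. The labels do not state the age of the mice or whether the 3 cultures of a condition came from separate animals, so the p-values measure the spread between these cultures only.

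A maturing erythroblast condenses its nucleus, moves it to one side of the cell and pinches it off, a process that resembles an asymmetric cell division. Actin filaments form a cortical network and a ring at the site of pinching. Rac GTPases and the formin mDia2, the product of Diaph3, promote filament assembly there, and non-muscle myosin II supplies contraction. Cofilin cuts old filaments and returns actin monomers for reuse. LIM kinases switch cofilin off by phosphorylation and slingshot phosphatases switch it on again. Plek2, a paralog of platelet pleckstrin with PH and DEP domains, is abundant in late erythroblasts, where it has been linked to the actin cytoskeleton and to cofilin. All these are actions of proteins, whereas the present data are levels of mRNA.

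The 6 libraries held 20076409 to 20419018 expected counts each. Hemoglobin genes took 18.3% to 20.3% of the counts in the DMSO cultures and 11.8% to 13.1% in the NUP-17d cultures, so a correction for library composition (TMM) was applied. Levels are given below as CPM, counts scaled to the same library total after this correction. The median log2 fold change of the 12306 genes tested was 0.014 with TMM and 0.28 when libraries were scaled by their totals only. Values with either scaling can therefore be read against its own median, and all genes named below with a fold change had a higher one by totals only than by TMM. The label calls the cells erythroblasts, and all 12 genes of an erythroid marker list were detected, with a summed level of 76270 to 86440 CPM in the DMSO cultures. Markers of neutrophils, led by Mpo, were also present at 3959 to 4120 CPM with DMSO.

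Relative to DMSO, NUP-17d cultures held less Plek2 and Diaph3 mRNA and more Plek, Limk1 and Dstn mRNA. Rac2, Limk2, Cfl1 and Cfl2 did not pass the threshold. Of the 9 genes tested, 5 were called at an adjusted p under 0.05 (edgeR quasi-likelihood test with Benjamini-Hochberg adjustment), whereas 35.3% of all tested genes were called. The called genes were 3 of 9 higher, against 16.4% of all tested genes, and 2 of 9 lower, against 18.9%. The CPM values of the conditions did not overlap for 7 of the 9 genes, as was also the case for 46.0% of all tested genes, with 5 of 9 genes apart on the higher side (against 22.8%) and 2 of 9 on the lower side (against 23.2%). With 9 genes, no test of these shares against the background was made. Scaling by library totals only called all 9 genes, against 74.1% of all tested genes, with 7 of 9 higher, against 68.7%, and 2 of 9 lower, against 5.34%.

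**Figure D1:**
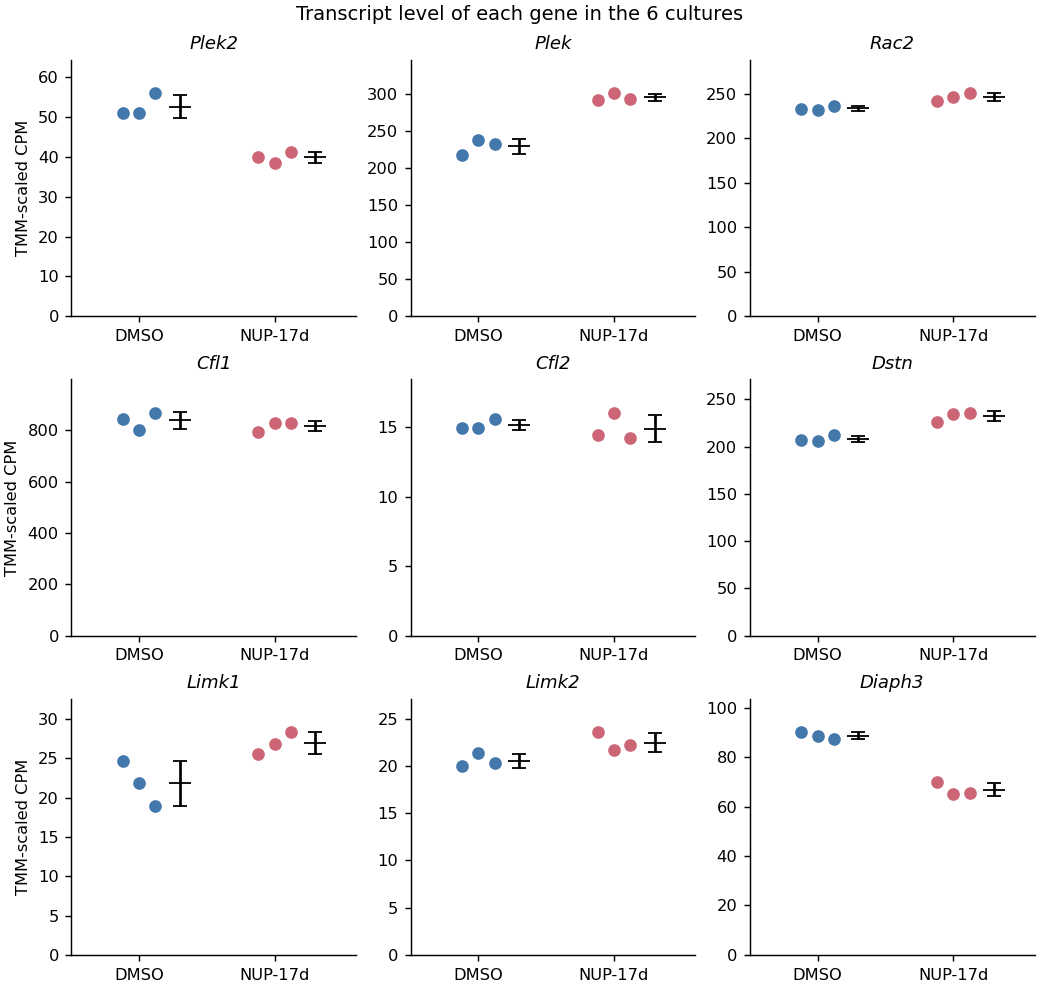
TMM-scaled CPM of the 9 genes in each culture, with 1 point per culture, DMSO on the left and NUP-17d on the right of each panel, and black bars for the mean ± SD of 3 cultures. Points of the conditions are apart for Plek2, Plek, Rac2, Dstn, Limk1, Limk2 and Diaph3 and overlap for Cfl1 and Cfl2, and the 3 NUP-17d cultures lie at 38.5 to 41.2 CPM for Plek2.

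The 250 bases in front of the RefSeq transcription start are printed for the genes with the lowest p-values in each direction, Plek2 and Diaph3 among the lower and Plek among the higher genes. Windows were read from the RefSeq table of build GRCm38.p6 in the direction of transcription. Matches to the searched motifs, on either strand, are in capitals. They comprise GATAA, the core bound by GATA factors, TTCNNNGAA, the STAT element, CACCC, bound by KLF factors, GGGCGG, the GC box of SP factors, and the CArG box of serum response factor.
Plek2 (chr12:78906939-78907188, minus strand): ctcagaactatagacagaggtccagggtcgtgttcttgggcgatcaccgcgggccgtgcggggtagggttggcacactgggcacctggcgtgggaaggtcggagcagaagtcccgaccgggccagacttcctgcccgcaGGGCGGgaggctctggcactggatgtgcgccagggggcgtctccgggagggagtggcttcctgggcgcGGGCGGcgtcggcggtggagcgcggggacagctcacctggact
Diaph3 (chr14:87141225-87141474, minus strand): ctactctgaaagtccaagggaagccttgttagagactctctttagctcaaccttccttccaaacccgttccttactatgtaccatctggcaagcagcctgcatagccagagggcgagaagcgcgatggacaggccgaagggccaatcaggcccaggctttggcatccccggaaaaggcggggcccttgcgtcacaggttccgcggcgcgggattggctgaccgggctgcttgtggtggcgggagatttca
Plek (chr11:17008719-17008968, minus strand): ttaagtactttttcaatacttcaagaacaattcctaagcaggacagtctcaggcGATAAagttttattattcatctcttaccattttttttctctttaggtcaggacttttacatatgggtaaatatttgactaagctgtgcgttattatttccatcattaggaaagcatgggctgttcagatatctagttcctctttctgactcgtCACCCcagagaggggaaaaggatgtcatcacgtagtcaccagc
The Plek2 window had a GC content of 70.0% and held 2 GC boxes and no other searched motif. That of Diaph3 had a GC content of 58.8% and held none of the 5 motifs. The Plek window was poor in GC, at 38.0%, and held 1 GATA core and 1 CACCC box. Thus the pleckstrin genes shared no searched motif in these windows. Of the 9 genes, 8 had an entry, with 11 windows in all, because Limk1 had 2 starts and Limk2 had 3. GATAA matched in 4 of the 11 windows (Plek, Cfl1, Limk1 and Limk2), against 22.6% of all 32851 promoter windows of this length. The CACCC box matched in 7 and the GC box in 6, against 52.0% and 32.7% of all windows. The STAT element was found in 1 window, of Limk2, against 7.02%, and the CArG box in none, against 1.47%. The windows of Plek2 and Diaph3 overlap the gene spans given below, which reach farther upstream than the start used here. These motifs can overlap each other, a match is only a match of letters, and Rac2 had no entry.

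Plek2 (Entrez 27260, chr12:78888691-78907172 in GRCm38.p6) encodes the protein whose DEP domain was the target of that screen. Its level was 51.1, 50.9 and 55.9 CPM in DMSO cultures 1, 2 and 3 and 39.9, 38.5 and 41.2 CPM in NUP-17d cultures 1, 2 and 3. Every NUP-17d culture lay below every DMSO culture. Plek2 mRNA fell by 0.40 on the log2 scale (SE 0.048, 95% CI -0.50 to -0.30, adjusted p = 1.78e-07), and 6.11% of tested genes had a lower fold change. With library totals only, the fall was smaller, at -0.13 (adjusted p = 0.0262). The erythroid markers moved in the same direction. All 12 were called lower, against 18.9% of all tested genes. Their summed level was 41120 to 45250 CPM in the NUP-17d cultures, 0.532 times the DMSO mean. Among these markers, 9 had a lower fold change than Plek2 and 3 a higher one, with a range from -1.08 for Hba-a2, an alpha-globin gene, to -0.24 for Klf1, an erythroid transcription factor. The part of the erythroid share of the cultures in the Plek2 difference was not tested. In bulk RNA, fewer cells of a type and less RNA per cell cannot be told apart.

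Plek (Entrez 56193, chr11:16971206-17008718) encodes pleckstrin, a protein kinase C substrate of platelets and leukocytes. It moved against its paralog, with 218.1, 237.7 and 232.8 CPM in the DMSO cultures and 292.6, 300.9 and 294.0 CPM in the NUP-17d cultures. The lowest NUP-17d culture was above the highest DMSO culture. Plek rose by 0.37 on the log2 scale (SE 0.036, 95% CI 0.29 to 0.44, adjusted p = 6.69e-09), or 0.63 with library totals only. A lower fold change was found for 92.8% of tested genes. Expected counts of Plek were not whole in any of the 6 cultures, whereas those of Plek2 were whole. Markers of megakaryocytes and platelets, cells rich in pleckstrin, were also higher in sum, at 488.5 to 538.9 CPM with DMSO and 566.0 to 586.7 CPM with NUP-17d. Of those 12 markers, 7 were called higher and 1 lower, against 16.4% and 18.9% of all tested genes. Their fold changes ran from -0.69 for Gp6 to 0.47 for Gp1bb, both platelet glycoproteins. Of these markers, 10 had a lower fold change than Plek and 2 a higher one. Macrophage markers overlapped in sum between the conditions (649.0 to 708.7 and 700.1 to 773.5 CPM), with 2 of 12 called higher and 2 lower. So did neutrophil markers (3959 to 4120 and 4052 to 4309 CPM), with 2 of 12 called higher and 1 lower. The shares of all tested genes beside both lists are the same 16.4% and 18.9%. By totals only the sums were higher by 0.441 (megakaryocyte and platelet), 0.363 (macrophage) and 0.313 (neutrophil) on the log2 scale. The part of these cells in the Plek difference was not tested.

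Because both pleckstrins were read in the same library, their ratio does not depend on the scaling. There were 4.27, 4.67 and 4.16 Plek counts for each Plek2 count in the DMSO cultures and 7.33, 7.81 and 7.14 in the NUP-17d cultures. The mean log2 ratio rose by 0.77 without overlap (exact permutation test, 2-sided, p = 0.1, as low as a comparison of 3 cultures with 3 can go). On the FPKM scale, which divides by transcript length, Plek2 made up 37.9% ± 1.41 (SD, n = 3) of the summed pleckstrin transcripts with DMSO, and this share dropped to 26.4% ± 0.891 (SD, n = 3) under NUP-17d.

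**Figure D2:**
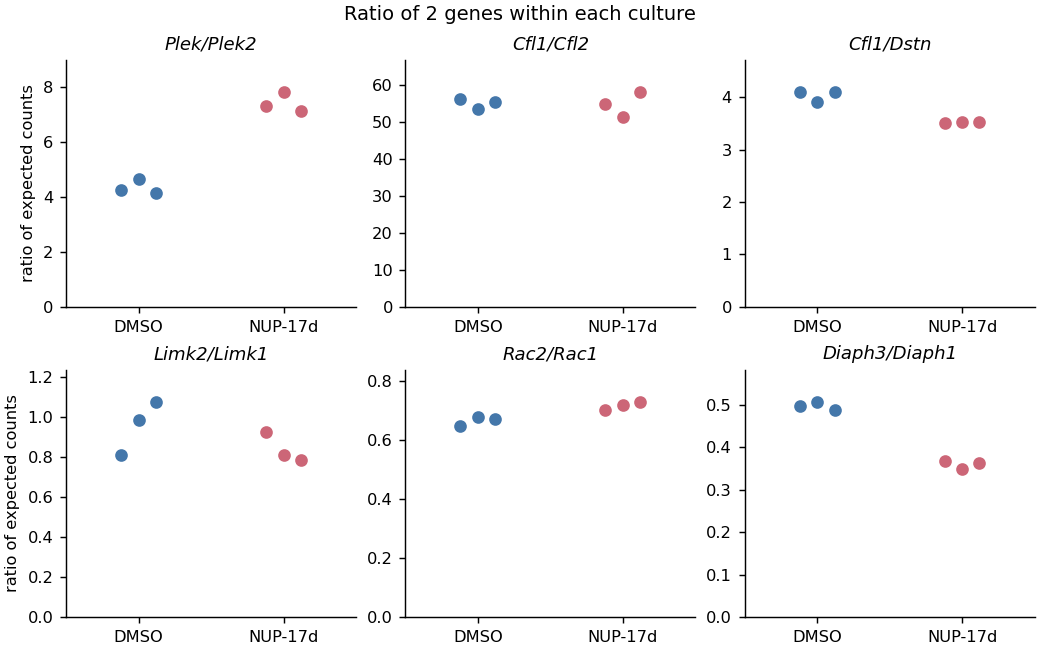
Within-library ratios of expected counts for 6 pairs of related genes, with 1 point per culture and the axis from 0 in each panel. Plek/Plek2 rose from 4.16 to 4.67 in the DMSO cultures to 7.14 to 7.81 in the NUP-17d cultures, Diaph3/Diaph1 fell, and Cfl1/Cfl2 and Limk2/Limk1 overlapped between the conditions.

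The ADF/cofilin family cuts and disassembles actin filaments. Cfl1 (Entrez 12631, chr19:5490455-5494031), its non-muscle form, was the most abundant transcript of the 9 genes, with an FPKM above that of 99.6% of all listed genes. Its level was 844.2, 802.1 and 867.6 CPM with DMSO and 793.5, 827.7 and 828.8 CPM with NUP-17d, and the conditions overlapped. The log2 fold change was -0.037 (SE 0.036, 95% CI -0.11 to 0.038, adjusted p = 0.461) with TMM and 0.23 with library totals only, so its sign depends on the scaling. Cfl2 (Entrez 12632, chr12:54858815-54862877), the form typical of muscle, was far scarcer, with 15.0, 15.0 and 15.6 CPM with DMSO and 14.5, 16.1 and 14.3 CPM with NUP-17d. These values also overlapped, with a log2 fold change of -0.025 (SE 0.071, 95% CI -0.17 to 0.12, adjusted p = 0.816) with TMM and 0.24 with totals only. Dstn (Entrez 56431, chr2:143915331-143943324), which encodes destrin or actin-depolymerizing factor, had 206.4, 205.6 and 211.9 CPM in the DMSO cultures. It had 226.3, 234.9 and 235.6 CPM in the NUP-17d cultures, all above the DMSO cultures. The rise was 0.16 on the log2 scale (SE 0.035, 95% CI 0.089 to 0.23, adjusted p = 0.000609), or 0.43 with totals only.

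The makeup of this family shifted slightly. For each Dstn count there were 4.09, 3.90 and 4.09 Cfl1 counts with DMSO and 3.51, 3.52 and 3.52 with NUP-17d, a log2 difference of -0.20 without overlap (exact permutation test, p = 0.1). Cfl1 nevertheless made up 86.2% ± 0.330 of the family's FPKM with DMSO and 84.6% ± 0.0327 with NUP-17d, while Dstn made up 13.2% ± 0.316 and 14.8% ± 0.0310. Cfl2 contributed 0.624% ± 0.0146 and 0.617% ± 0.0368, and its ratio to Cfl1 did not separate the conditions (exact permutation test, p = 0.9).

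LIM kinases phosphorylate cofilin and destrin and so stop them from binding actin. Limk1 (Entrez 16885, chr5:134656039-134689859) was at 24.7, 21.8 and 19.0 CPM in the DMSO cultures, the widest relative spread among the 9 genes, and at 25.6, 26.9 and 28.3 CPM in the NUP-17d cultures. All NUP-17d cultures lay above the DMSO cultures, although DMSO culture 1 came close. Limk1 rose by 0.30 on the log2 scale (SE 0.071, 95% CI 0.16 to 0.45, adjusted p = 0.00136), and leaving out each culture in turn gave 0.21 to 0.40. With totals only the rise was 0.57. Limk2 (Entrez 16886, chr11:3343297-3409276) had 19.95, 21.4 and 20.3 CPM with DMSO and 23.6, 21.7 and 22.2 CPM with NUP-17d. These groups were narrowly apart, and the log2 fold change of 0.13 (SE 0.061, 95% CI 0.0027 to 0.25) did not pass the threshold (adjusted p = 0.106). With library totals only it was 0.39 and was called. The Limk2 to Limk1 count ratio overlapped between the conditions (exact permutation test, p = 0.2).

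Other regulators of cofilin and of the monomer pool formed a list of 20 genes, of which 19 were tested. Of these, 6 rose and 13 were not called, with a median log2 fold change of 0.070, against 0.014 for all tested genes. The 6 genes are 31.6% of the list, against 35.3% of all tested genes called in either direction and 16.4% called higher. Tesk1, a further cofilin kinase, rose by 0.43 (21.7 ± 0.665 to 29.2 ± 2.33 CPM, adjusted p = 3.2e-06). Coro1b, a coronin that works at branched filaments, rose by 0.34 (adjusted p = 1.11e-08), and Ssh3, of the slingshot phosphatase family, rose by 0.32 (adjusted p = 0.000261). The other slingshot genes did not pass, with 0.10 for Ssh2 (adjusted p = 0.0879) and -0.080 for Ssh1 (adjusted p = 0.332). Pdxp, which encodes the cofilin phosphatase chronophin, was scarce at 7.05 ± 0.418 and 6.46 ± 0.546 CPM and was not called (adjusted p = 0.392). The fold changes of Ssh1 and Pdxp were above 0 with library totals only (0.19 and 0.14). Cap1, which helps to recycle cofilin-bound monomers, rose by 0.11 (adjusted p = 0.0168), a call that was lost without DMSO culture 1, DMSO culture 2 or NUP-17d culture 2 (adjusted p = 0.0600 to 0.0792). Wdr1, which speeds cofilin-driven disassembly, was not called (0.061, adjusted p = 0.184). Totals only called Wdr1 and Ssh2 higher, at 0.33 (adjusted p = 1.06e-07) and 0.37 (adjusted p = 5.46e-07).

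Rac2 (Entrez 19354, chr15:78559169-78572783) is the Rac GTPase of blood cells. It was measured at 232.4, 231.8 and 236.3 CPM with DMSO and at 241.8, 246.4 and 250.2 CPM with NUP-17d. The groups were apart but close, and the log2 fold change of 0.076 (SE 0.034, 95% CI 0.0068 to 0.15) did not pass the threshold (adjusted p = 0.0817). Scaling by totals only gave 0.34, which was called. Neutrophils and macrophages are rich in Rac2, and the summed markers of both overlapped between the conditions by TMM, with 3959 to 4120 and 4052 to 4309 CPM for the neutrophil list. With totals only these sums were higher by 0.313 (neutrophil) and 0.363 (macrophage) on the log2 scale. The part of these cells in the Rac2 values was not tested. Rac1, the ubiquitous form, was at 350.7 ± 8.95 CPM with DMSO and 343.5 ± 0.566 CPM with NUP-17d, with a log2 fold change of -0.030 (adjusted p = 0.528) with TMM and 0.24 with totals only. Rac2 counts were 0.648, 0.679 and 0.671 of the Rac1 counts in the DMSO cultures and 0.703, 0.719 and 0.728 in the NUP-17d cultures. This ratio was higher with NUP-17d by 0.11 on the log2 scale (exact permutation test, p = 0.1). Like those of Plek, the expected counts of Rac2 were not whole in any culture.

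Genes that act beside or below Rac2 moved in both directions. Rhob, a small GTPase, rose by 0.36 (61.3 ± 2.18 to 78.9 ± 4.94 CPM, adjusted p = 4.48e-07) and Prex1, a Rac exchange factor of blood cells, by 0.26 (adjusted p = 2.16e-06). Rhog and Cdc42, a regulator of cell polarity, rose by 0.17 (adjusted p = 0.000505) and 0.14 (adjusted p = 0.00272). The genes that fell included effector kinases. Rock1, which drives myosin II and also activates LIM kinases, fell by 0.27 (187.1 ± 4.44 to 154.8 ± 6.83 CPM, adjusted p = 1.7e-06), but was at -0.0060 with totals only. Rock2 was not called, with -0.025 (adjusted p = 0.708) by TMM and 0.24 by totals only. Pak4 fell by 0.31 (adjusted p = 0.000639) and was at -0.043 with totals only. Pak1 fell by 0.14 (adjusted p = 0.0186) and Ect2, an exchange factor of the cleavage furrow, by 0.18 (adjusted p = 0.00282), whereas totals only gave 0.13 and 0.085. Without DMSO culture 3 Pak1 was no longer called (adjusted p = 0.116). Pak2 was not called by TMM (0.015, adjusted p = 0.785) and was called higher by totals only (0.28, adjusted p = 1.66e-06). Rhoa was lower by TMM (-0.090, adjusted p = 0.0384) and higher by totals only (0.18), and 5 of the 6 fits that left out a culture, all but that without DMSO culture 2, did not call it (adjusted p = 0.0558 to 0.182).

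Diaph3 (Entrez 56419, chr14:86655357-87141247) encodes mDia2, a formin that elongates unbranched filaments and is known for a role in erythroblast cytokinesis and enucleation. The DMSO cultures held 90.0, 88.7 and 87.3 CPM and the NUP-17d cultures 69.9, 65.1 and 65.3 CPM. The lowest DMSO culture was above the highest NUP-17d culture. Diaph3 fell by 0.41 on the log2 scale (SE 0.041, 95% CI -0.49 to -0.33, adjusted p = 6.04e-09), and 5.94% of tested genes had a lower fold change. Totals only gave -0.14 (adjusted p = 0.00697). By TMM, markers of cycling cells were lower too, with 10 of 12 called lower, against 18.9% of all tested genes. Their sum was 4419 to 4624 CPM with DMSO and 3653 to 3985 CPM with NUP-17d, 0.845 times the DMSO mean. The fold changes of these markers by TMM ran from -0.32 for Mki67 to -0.072 for Ube2c, so all 12 lay above that of Diaph3. With totals only, the marker sum was instead higher by 0.023 on the log2 scale. Top2a, Aurkb, Bub1, Plk1, Kif11, Birc5 and Ube2c were then called higher, as were 68.7% of all tested genes. The other markers of this list were not called. The 12 erythroid markers ran by TMM from -1.08 for Hba-a2 to -0.24 for Klf1, a range that includes Diaph3. The part of cell cycling or of the erythroid share in the Diaph3 difference was not tested.

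Diaph1, which encodes the related mDia1, was not called (178.3 ± 2.83 and 185.5 ± 4.78 CPM, log2 fold change 0.057, adjusted p = 0.217), but totals only gave 0.32, which was called (adjusted p = 4.56e-08). Diaph3 counts were 0.498, 0.506 and 0.488 of the Diaph1 counts with DMSO and 0.368, 0.350 and 0.362 with NUP-17d, a log2 difference of -0.47 without overlap (exact permutation test, p = 0.1). By FPKM, Diaph3 made up 42.0% ± 0.465 of the 3 mDia formins with DMSO and 34.3% ± 0.641 with NUP-17d, and Diaph1 rose in share from 52.2% ± 0.334 to 59.0% ± 0.434. Across the list of other formins, 3 of 10 tested genes rose and 1 fell, so 40.0% were called, near the 35.3% of all tested genes. Daam1, a formin of Wnt polarity signaling, fell by 0.34 (156.4 ± 7.65 to 123.9 ± 7.90 CPM, adjusted p = 6.89e-07), with -0.068 by totals only. Fmnl3 rose by 0.42 (adjusted p = 5.74e-06) and Inf2 by 0.18 (adjusted p = 0.00063). Fmnl2, at 0.22 (adjusted p = 0.038), overlapped between the conditions, and its call was lost without DMSO culture 1, DMSO culture 3, NUP-17d culture 1 or NUP-17d culture 3 (adjusted p = 0.106 to 0.154).

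**Figure D3:**
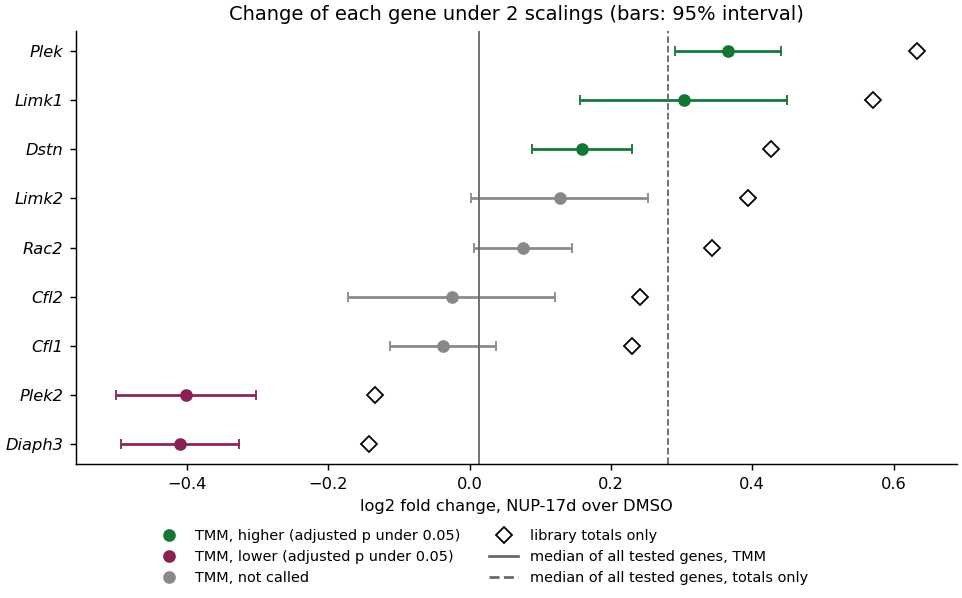
Log2 fold change of NUP-17d over DMSO for the 9 genes, by TMM (points with 95% CI bars) and by library totals only (open diamonds, no bars), with lines for the median of all tested genes under each scaling (0.014 and 0.28). Plek2 and Diaph3 lie below 0 under both scalings, whereas Cfl1 and Cfl2 change sign with the scaling.

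Per unit of transcript length, the order of the 9 genes was the same in both conditions. Mean FPKM in the DMSO cultures fell from 642.0 for Cfl1 through 98.2 for Dstn, 69.2 for Rac2, 50.02 for Plek, 30.5 for Plek2 and 22.6 for Diaph3 to 6.11 for Limk1, 4.65 for Cfl2 and 4.07 for Limk2. In the NUP-17d cultures it ran from 755.2 for Cfl1 to 5.38 for Limk2. No neighbors in this order overlapped with DMSO, and with NUP-17d only Cfl2 and Limk2 did, with 5.19 to 5.98 and 5.24 to 5.64 FPKM. FPKM carries no correction for composition, so these levels are for comparison between genes within a condition.

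The structural side of the actin system was examined in further lists. Across all 7 lists, which do not contain the 9 genes, 114 of 127 genes were tested, 32 rose and 17 fell, so 43.0% were called, against 35.3% of all tested genes. With totals only, 96 of the 114 were called higher and 3 lower, when 68.7% of all tested genes were called higher and 5.34% lower. The cytoplasmic actins share most of their sequence and their counts were not whole, so their values are uncertain. Actg1, gamma-actin, rose by 0.20 (1131 ± 27.6 to 1298 ± 18.9 CPM, adjusted p = 5.39e-05). Actb, beta-actin, was not called, with -0.061 (adjusted p = 0.217) by TMM and 0.21 by totals only.

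The Arp2/3 complex, which nucleates branched filaments, and its activators showed small differences, with 5 of 21 tested genes higher and 2 lower and a median of 0.011. This is 33.3% called, against 35.3% of all tested genes. Those that rose included Cttn, or cortactin, by 0.22 (adjusted p = 0.00196), Cyfip2, of the WAVE complex, by 0.19 (adjusted p = 0.000283) and the subunit Arpc1b by 0.15 (adjusted p = 0.00156). Actr2, the Arp2 subunit, and Wasl, or N-WASP, were lower by TMM (-0.10, adjusted p = 0.0265, and -0.15, adjusted p = 0.0215) and higher by totals only (0.17 and 0.11). Their calls depended on single cultures, since Actr2 was lost without DMSO culture 2 or 3 or NUP-17d culture 3 (adjusted p = 0.0508 to 0.138) and Wasl without DMSO culture 1 or 3 or NUP-17d culture 1 or 2 (adjusted p = 0.0525 to 0.0895).

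Among myosin II and contractile ring genes, 1 of 8 tested rose and 4 fell, so 62.5% were called, against 35.3% of all tested genes (16.4% higher and 18.9% lower). Myh10, the heavy chain of non-muscle myosin IIB, was at 60.04, 55.9 and 53.6 CPM with DMSO and at 32.1, 32.0 and 30.5 CPM with NUP-17d. It fell by 0.84 on the log2 scale (SE 0.050, adjusted p = 2.38e-13) and by 0.57 with totals only. By TMM, Myh10 lay within the range of the erythroid markers, -1.08 to -0.24. The part of the erythroid share in its fall was not tested. Myh9, the heavy chain of myosin IIA, instead rose by 0.11 (474.7 ± 11.7 to 512.1 ± 17.5 CPM, adjusted p = 0.0176), a call that was lost without DMSO culture 3 or NUP-17d culture 1 (adjusted p = 0.0899 and 0.11). Expected counts of Myh10 and Myh9 were not whole in any of the 6 cultures. Cit, the citron kinase of the midbody, fell by 0.37 (adjusted p = 8.83e-07), with -0.10 by totals only, and the light chain Myl6 was lower by TMM (-0.17, adjusted p = 0.000435) but higher by totals only (0.095).

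In the list of filament capping, severing, bundling and anchoring genes, 5 of 28 tested genes rose and 4 fell, so 32.1% were called, against 35.3% of all tested genes. The largest falls were in genes of the red cell membrane skeleton. Tmod1, tropomodulin, which caps the slow-growing end of its short filaments, was at 434.1, 406.3 and 416.6 CPM with DMSO and at 247.0, 240.6 and 259.1 CPM with NUP-17d. The change was -0.75 (SE 0.037, adjusted p = 7.66e-15), or -0.48 with totals only. Tpm1, tropomyosin, which lies along these filaments, fell by 0.45 (549.5 ± 24.0 to 403.0 ± 6.31 CPM, adjusted p = 1.24e-10), or by 0.18 with totals only. By TMM, Tmod1 and Tpm1 both lay within the range of the erythroid markers, -1.08 to -0.24. The part of the erythroid share in these falls was not tested. Capg and Actn1, alpha-actinin, rose by 0.27 (adjusted p = 5.94e-05) and 0.26 (adjusted p = 9.78e-05), and Zyx, a focal adhesion protein, by 0.22 (adjusted p = 3.38e-05). Rdx, radixin, was lower by TMM (-0.10, adjusted p = 0.0317) and higher by totals only (0.16), and was no longer called without DMSO culture 1 or 2 or NUP-17d culture 2 or 3 (adjusted p = 0.0758 to 0.138).

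**Figure D4:**
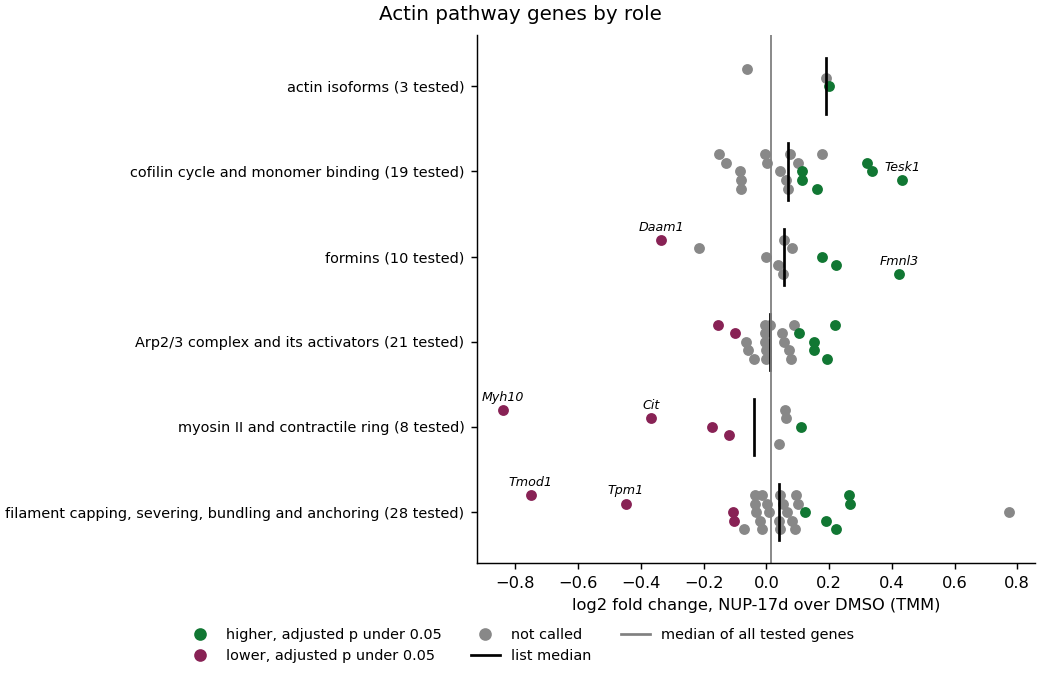
Log2 fold change (TMM) of each tested gene in 6 of the actin lists, with green points for genes called higher, purple for genes called lower and gray for genes not called, a black line for the median of the list and a gray line for that of all tested genes (0.014). Most points lie near the gray line, and Myh10 and Tmod1 are the lowest points, at -0.84 and -0.75, under totals only -0.57 and -0.48.

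Genes whose levels across the 6 cultures were most like those of the main genes were sought among 9762 genes by the root mean square difference of centered log2 CPM. Closest to Plek2 were Whamm (0.016), Dnttip1 (0.017) and Slc25a38 (0.027), and closest to Diaph3 were Snw1 (0.015), Cep76 (0.017) and Lpin2 (0.019). The nearest to Plek were Adssl1 (0.015), B430306N03Rik (0.020) and Mark4 (0.023). Limk1 had more distant neighbors, with Alkbh6 at 0.032, Evi5l at 0.043 and Inafm1 at 0.049. Cfl1 was most like Dbi (0.0074), Ly6c2 (0.012) and Osgin2 (0.014), and Rac2 most like Nudt3 (0.0058), Serf2 (0.0074) and Zfp598 (0.010). For Plek2, Plek and Diaph3 this likeness rests mainly on the difference between the conditions. Cfl1 overlapped between the conditions, and its 3 neighbors had log2 fold changes of only -0.029 to -0.052. Limk1 also varied among the DMSO cultures. For every gene the likeness is a description of 6 libraries.

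The remaining marker lists cover stem and progenitor cells, mast cells and basophils, and lymphoid cells, with values by TMM. Of all tested genes, 16.4% were called higher and 18.9% lower by TMM. Stem and progenitor markers rose in sum from 389.8 to 391.1 CPM with DMSO to 404.5 to 422.4 CPM with NUP-17d, with 2 of 7 tested genes called higher and 5 not called. Mast cell and basophil markers were at 315.6 to 328.3 CPM with DMSO and 292.4 to 302.6 CPM with NUP-17d, with 1 of 7 called higher and 3 lower, and Tpsab1 and Mcpt4 were at 0 in all cultures. Lymphoid markers were low, at 31.3 to 34.6 and 29.5 to 30.5 CPM, with 2 of 8 called lower and 6 not called. By totals only, all of these sums were higher with NUP-17d on the log2 scale. The differences were 0.345 (stem and progenitor), 0.151 (mast cell and basophil) and 0.120 (lymphoid). The part of these cells in the differences above was not tested.

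**Figure D5:**
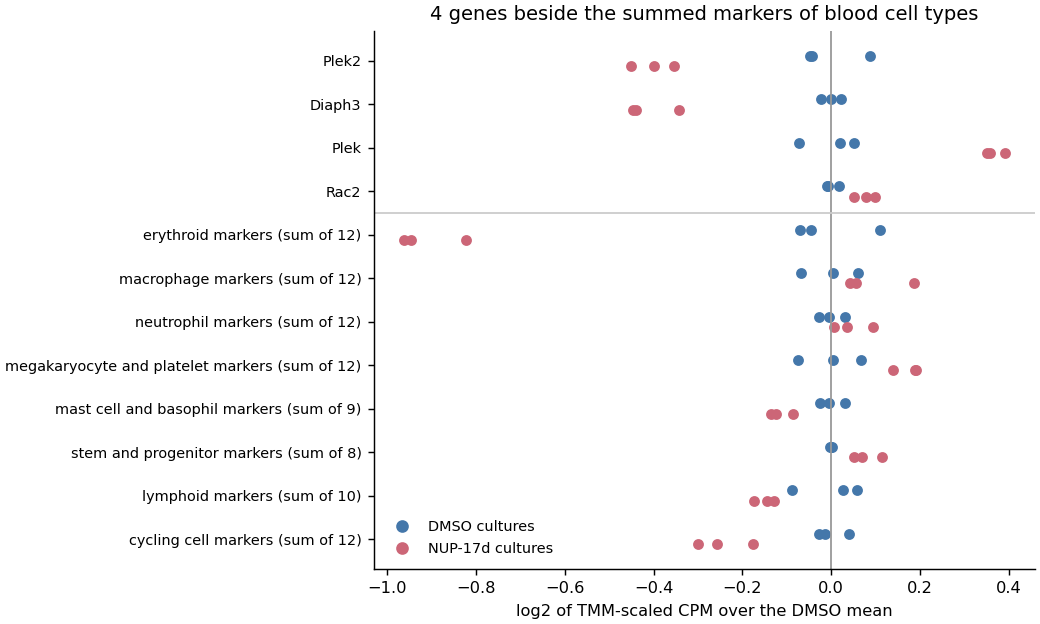
Log2 of TMM-scaled CPM over the DMSO mean for Plek2, Diaph3, Plek and Rac2 and for the summed markers of 8 cell types or states, with 1 point per culture. Erythroid markers lie farthest below 0 in the NUP-17d cultures (0.532 times the DMSO mean), and megakaryocyte and platelet markers lie above 0 (1.13 times), while macrophage and neutrophil markers overlap between the conditions. With library totals only the sums of mast cell, lymphoid and cycling cell markers lie above the DMSO mean.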

How the data were processed

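RNA-Seq was performed on 3 DMSO and 3 NUP-17d cultures. Per the labels, mRNA was enriched with oligo(dT), reverse transcribed with random primers and sequenced on a DNBseq platform with single-end reads, whereas the published methods name a stranded kit and an Illumina instrument. Genome build mm10 is named in the submitters' processing notes, and the aligner and counting program are not given in the sources used here. The authors deposited, for each gene with reads, an expected count, an estimate that need not be whole, and FPKM, which the authors scaled by transcript length and library total without a correction for composition. Expected counts were not whole for 27.8% to 28.5% of the genes listed in each culture, among them Tesk1, Cap1 and Pak4. A gene missing from a culture was taken as 0.

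Expected counts were rounded and compared in R 4.3.3 with edgeR 4.0.16 (filterByExpr, TMM, glmQLFit and glmQLFTest, Benjamini-Hochberg adjustment over 12306 genes, threshold 0.05). The common biological coefficient of variation was 2.95%. Single values (ratios with 0.5 added to each count, marker sums) were compared by exact permutation tests over cultures. Alternatives were DESeq2 1.42.0, library totals only, no filter, removal of hemoglobin genes, a replicate block, omission of single cultures, and limma 3.58.1 applied to FPKM as log2 after adding 1 or 0.1.

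The 9 genes, the 7 actin lists and the 8 marker lists were chosen with earlier results of these data known, and the result of 1 actin list is not reported here. The genes named are these 9, per list up to 3 called genes in each direction with the lowest p and a mean count of at least 100, a set of actins, GTPases, kinases, phosphatases and myosins named in any case, and the 3 genes most like each of 6 of the 9 genes. Promoter windows and gene coordinates are RefSeq's for GRCm38.p6, the assembly of mm10. Strand was not stated for the counting, so reads of overlapping antisense genes cannot be told apart. Counts limit the precision of the scarcest genes, such as Cfl2 with a mean of 305.8 counts.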

Additional observations from a re-analysis of the deposited data

How the results depend on the processing

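The calls of the 9 genes were the same with DESeq2, without the filter, with hemoglobin genes removed and in all 6 fits that left out a culture. Scaling changed more. Library totals only, limma on log2(FPKM + 1) and limma on log2(FPKM + 0.1) all lack the composition correction. Under each, 7 of the 9 genes were called higher. Of all 12306 tested genes, 8458, 8423 and 8403 were called higher and 657, 636 and 635 called lower, in that order. Of the 114 actin list genes tested, 96 were called higher and 3 called lower under each. With totals only the shares of all tested genes were 68.7% called higher and 5.34% called lower. DESeq2 called 1276 tested genes higher and 11 actin list genes lower. In the fits that left out a culture, actin list genes called lower ranged from 11 (without DMSO culture 3) to 16. The cause of the DESeq2 differences was not tested.

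Log2 fold changes turned positive under totals only, limma with 1 and limma with 0.1, in that order, for Cfl1 (0.2303, 0.2344, 0.2347), Cfl2 (0.2418, 0.2038, 0.2391), Actb (0.2054, 0.2102, 0.2103), Actr2 (0.1674, 0.1693, 0.1713), Ect2 (0.0847, 0.0771, 0.0811), Myl6 (0.0948, 0.0978, 0.0980), Pak1 (0.1256, 0.1240, 0.1321), Pdxp (0.1395, 0.1088, 0.1374), Rac1 (0.2378, 0.2399, 0.2413), Rdx (0.1644, 0.1693, 0.1739), Rhoa (0.1769, 0.1773, 0.1780), Rock2 (0.2422, 0.2180, 0.2430), Ssh1 (0.1876, 0.1654, 0.1892) and Wasl (0.1148, 0.1068, 0.1199). Leaving out a culture gave ranges that crossed 0 for Cfl2 (-0.0802 to 0.0052), Pak2 (-0.0040 to 0.0326) and Rock2 (-0.0625 to 0.0116), none of them called. By totals only the calls of Rock1 (adjusted p = 0.899), Pak4 (0.581), Daam1 (0.185), Cit (0.0897), Ect2 (0.136) and Wasl (0.0605) were lost, and both limma fits lost them too. Other calls lost were Fmnl2, Pak1, Rdx and Wasl with DESeq2 and Rdx and Rhoa without the filter. Summed markers by totals only differed, on the log2 scale, by -0.642 (erythroid), 0.363 (macrophage), 0.313 (neutrophil), 0.441 (megakaryocyte and platelet), 0.151 (mast cell and basophil), 0.345 (stem and progenitor), 0.120 (lymphoid) and 0.023 (cycling), and the mast cell, lymphoid and cycling values had the opposite sign by TMM.

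Deviations from the mean of the condition were unrelated between same-numbered cultures (correlations of 0.0564, -0.00474 and -0.00287), so the numbers were not taken to pair the samples. A fit with the replicate block called 2121 tested genes higher and 2422 lower, against 2019 and 2327 without it, 3 of the 9 genes higher and 2 lower, and 32 actin list genes higher and 18 lower. It changed no call of the 9 genes or of the 42 actin list genes named here.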
